A study of Mus musculus with 12 samples.

Results

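The 32 genes described here encode enzymes of cholesterol and fatty acid synthesis and the proteins that govern their transcription. They were taken by name from the 32248 rows of the count table and fall into 18 sterol enzymes, 6 regulators and sterol transport genes, and 8 fatty acid genes. All 32 passed the filter on low counts, which kept 13772 genes for testing. The cells were OCY454, a mouse line that is kept proliferating at 33 °C and differentiates towards osteocytes, the cells embedded in bone matrix, after a shift to 37 °C. The KO groups were OCY454 cells in which CRISPR-Cas9 removed exons 19 to 21 of Piezo1, a stretch-gated cation channel, sampled after 1, 14 and 28 days at 37 °C. The WT groups were WT OCY454 cells at the same 3 days. Poly(A) RNA was sequenced in 2 libraries per group, 12 in all. The labels do not say whether the KO cells were 1 clone, or whether the 2 libraries of a group came from separate cultures. The spread behind each p-value is therefore that of the libraries, which may be technical.

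Sterol synthesis starts from acetyl-CoA, passes through mevalonate and farnesyl diphosphate to squalene, closes the squalene chain into lanosterol and trims lanosterol to cholesterol. Fatty acid synthesis draws on the same acetyl-CoA, which is carboxylated, built into palmitate and then lengthened or desaturated. Many genes of both pathways are driven by SREBP transcription factors, SREBP2 mainly for sterol genes and SREBP1c mainly for fatty acid genes. SREBP precursors sit in the endoplasmic reticulum bound to SCAP, are held there by INSIG proteins when sterol is plentiful, and are cut free in the Golgi when it is scarce. Scd1, Scd2 and Srebf1 also respond to the oxysterol receptor LXR. In bone, farnesyl diphosphate synthase is known as the enzyme of bone-resorbing cells that nitrogen-containing bisphosphonates inhibit.

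SREBPs bind sterol regulatory elements together with NF-Y, which binds CCAAT boxes, and also bind the E-box CACGTG. RefSeq start-site windows, 250 bases before to 50 after the start in GRCm38.p6, were found for 25 of the 32 genes. Of all genes, 27025 had windows, and 10537 of these were among the genes tested. A gene with more than 1 window was counted once if any of them held the motif. The core TCACNCCAC, searched on both strands, was found for 1 of the 25 genes, Hmgcs1, for 1.44% of all genes and for 1.4% of genes tested. CCAAT, searched on both strands, was found for 20 of the 25 genes, 41.1% of all genes and 43% of genes tested. The 20 included 14 of 15 sterol enzymes and 2 of 5 fatty acid genes. The palindrome CACGTG was found for 5 of the 25 genes (Hsd17b7, Sc5d, Dhcr7, Insig1 and Scap), 8.09% of all genes and 11.8% of genes tested. In Dhcr7 it lay in a different window from CCAAT. A match describes letters only, not binding. The sequences of 200 bases upstream are given for an early enzyme that carries the core, a late enzyme and a regulator that carry CCAAT and CACGTG, and the fatty acid gene with the widest KO to WT difference. Capitals mark matches, no 2 of which share bases in these stretches, with CCAAT on the opposite strand read as ATTGG. The windows are chr13:119690151-119690350 (plus strand) for Hmgcs1, chr1:169969242-169969441 (minus strand) for Hsd17b7, chr5:28071163-28071362 (plus strand) for Insig1 and chr3:129532155-129532354 (plus strand) for Elovl6, each written 5′ to 3′ on the strand of its gene.
Hmgcs1: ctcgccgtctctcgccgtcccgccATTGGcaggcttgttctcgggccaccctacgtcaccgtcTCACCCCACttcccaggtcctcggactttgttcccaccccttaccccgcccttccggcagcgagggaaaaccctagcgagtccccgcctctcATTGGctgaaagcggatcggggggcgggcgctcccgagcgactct
Hsd17b7: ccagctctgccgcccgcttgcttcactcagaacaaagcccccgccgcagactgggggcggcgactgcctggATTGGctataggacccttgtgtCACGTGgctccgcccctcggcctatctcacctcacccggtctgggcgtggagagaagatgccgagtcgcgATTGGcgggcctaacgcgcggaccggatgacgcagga
Insig1: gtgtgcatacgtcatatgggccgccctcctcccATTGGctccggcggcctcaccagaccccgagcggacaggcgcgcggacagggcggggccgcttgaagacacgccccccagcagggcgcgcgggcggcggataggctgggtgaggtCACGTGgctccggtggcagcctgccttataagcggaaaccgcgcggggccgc
Elovl6: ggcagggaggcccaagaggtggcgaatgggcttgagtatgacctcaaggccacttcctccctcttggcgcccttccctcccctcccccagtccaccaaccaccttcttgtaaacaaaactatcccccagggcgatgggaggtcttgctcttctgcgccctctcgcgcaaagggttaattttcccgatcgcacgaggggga
The Hmgcs1 stretch held 1 core element between CCAAT boxes, the Hsd17b7 stretch paired CACGTG with CCAAT boxes on either side, and the Elovl6 stretch held none of the 3 motifs.

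Total counts ran from 8590132 to 15357433 per library. Piezo1 itself had 107.6 to 281.5 CPM (read counts scaled to a common library size) in KO libraries and 206.1 to 241.8 CPM in WT libraries. KO exceeded WT at day 28 and lay below it at days 1 and 14. The exon deletion leaves most of the transcript countable, so the row total does not check the labels. Osteoblast genes were abundant, with Col1a1 (type I collagen) at 1710 to 17900 CPM. Of the 6 osteocyte markers, Pdpn ran from 14.1 to 59.9 CPM, Dmp1 from 3.68 to 16.1 CPM and Phex from 2.97 to 11.4 CPM. Mepe was at 0.495 to 2.2 CPM, Sost at 0.343 to 1.3 CPM and Fgf23 at 0 to 2 counts. At day 28, 11 of the 32 genes were higher in KO replicate 1 than in KO replicate 2, with a median ratio of 0.963. In WT cells at day 28 this held for 30 of 32 genes, with a median ratio of 1.12 and a highest ratio of 1.6. A row for a YAP fusion transgene also had 0 to 7 counts in KO libraries. In WT libraries it had 2 and 3 counts at day 1, then 82 and 45 (day 14) and 224 and 75 (day 28). The part of these library differences in the results below was not tested.

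Per length (RPKM, CPM divided by the summed exon length in kilobases), 19 of the 32 genes averaged at least 10 RPKM over the 12 libraries. Scd2, a stearoyl-CoA desaturase, led with a mean level of 169 RPKM and a range of 81.1 to 262 RPKM. Scd1, its neighbour on chromosome 19, followed with a mean level of 48 RPKM. Tm7sf2, a sterol C14 reductase, was lowest with a mean level of 0.821 RPKM and rests on few reads. Across the 6 group means, Insig1 varied most, 4.38-fold, followed by Elovl6 at 4.1-fold and Tm7sf2 at 4.06-fold. Acaca varied least, 1.28-fold.

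By the mean over genes, the balance of sterol to fatty acid genes shifted between days in KO cells and stayed within a narrow range in WT cells. For each library, the log2 CPM of every gene was centred on its mean over the 12 libraries and averaged over the 18 sterol enzymes and over the 8 fatty acid genes. The sterol minus fatty acid difference in KO cells was 0.30 and 0.37 (day 1), −0.36 and −0.33 (day 14), then 0.18 and 0.26 (day 28). In WT cells it was −0.08 and −0.10 (day 1), −0.09 and −0.01 (day 14), then −0.12 and −0.04 (day 28). By this measure KO libraries lay above WT libraries at days 1 and 28 and below them at day 14, without overlap, whereas the 6 WT libraries stayed between −0.12 and −0.01. The day 14 direction turned when summed levels, in which the most abundant genes weigh most, replaced the mean over genes: by summed CPM the difference was −0.21 in KO cells and −0.33 in WT cells. The fatty acid over sterol ratio of summed RPKM at day 14 was likewise lower in KO libraries, at 1.56 and 1.54, than in WT libraries, at 1.68 and 1.65. At days 1 and 28 the summed CPM kept KO above WT, with 0.56 and 0.44 in KO cells against −0.31 and −0.14 in WT cells. No test was run on these class means. The sterol mean in KO cells was 0.42 ± 0.02 at day 1, −0.23 ± 0.06 at day 14 and −0.13 ± 0.06 at day 28, against 0.15 ± 0.00, −0.25 ± 0.02 and 0.04 ± 0.14 in WT cells (SD, n = 2 each). The fatty acid mean in KO cells was 0.09 ± 0.03 at day 1, 0.12 ± 0.08 at day 14 and −0.36 ± 0.00 at day 28, against 0.23 ± 0.01, −0.20 ± 0.08 and 0.12 ± 0.19 in WT cells (SD, n = 2 each). With Elovl6 left out of the fatty acid class, a choice made after its values were seen, the KO difference was 0.43, −0.17 and 0.17 at the 3 days and the WT difference was −0.16, −0.10 and −0.15, so at day 14 the KO and WT means lay closer together.

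**Figure D1:**
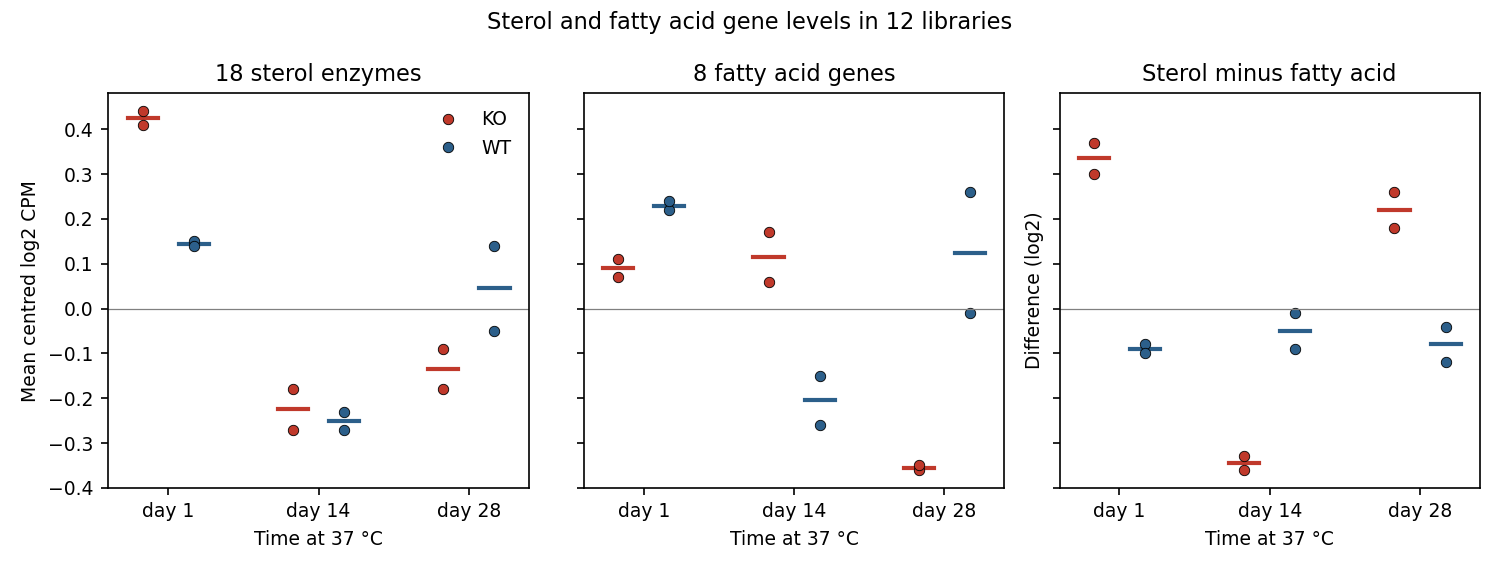
Mean centred log2 CPM of the 18 sterol enzymes, of the 8 fatty acid genes, and their difference, by days at 37 °C; points are libraries (KO red, WT blue) and bars are group means. In the difference panel the WT libraries stay between −0.12 and −0.01, while KO libraries lie at 0.30 and 0.37, then −0.36 and −0.33, then 0.18 and 0.26.

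KO cells were compared with WT cells at each day to describe how expression differed between the lines as the cells differentiated. An effect of the exon deletion cannot be told apart from other differences between the lines. A gene is called when its adjusted p in edgeR's quasi-likelihood test is below 0.05, and each log2 fold change is KO minus WT with its standard error. The 6 groups share the estimate of spread, although their replicates differed in spread. Over all genes tested, the chi-square per degree of freedom between replicates was 1.4, 1.71 and 5.31 in KO cells at days 1, 14 and 28. In WT cells it was 3.16, 2.37 and 9.97. Standard errors and p-values may therefore be too small at day 28 and too large at the earlier days. At day 1, 16 of the 32 genes were called, 10 higher and 6 lower, where 40.3% of all genes tested were called (19.5% higher, 20.8% lower). At day 14, 18 of 32 were called, 8 higher and 10 lower, where 49.7% of all genes were (23.8% higher, 25.9% lower). At day 28, 15 of 32 were called, 1 higher and 14 lower, where 41% of all genes were (19.8% higher, 21.2% lower). The shares of the 32 genes called, in either direction, were near the background at each day, while 14 of the 15 calls at day 28 were lower in KO. Scaling by library totals alone changed the split of all genes to 2121 higher and 3418 lower at day 1 and to 1809 higher and 3692 lower at day 28.

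**Figure D2:**
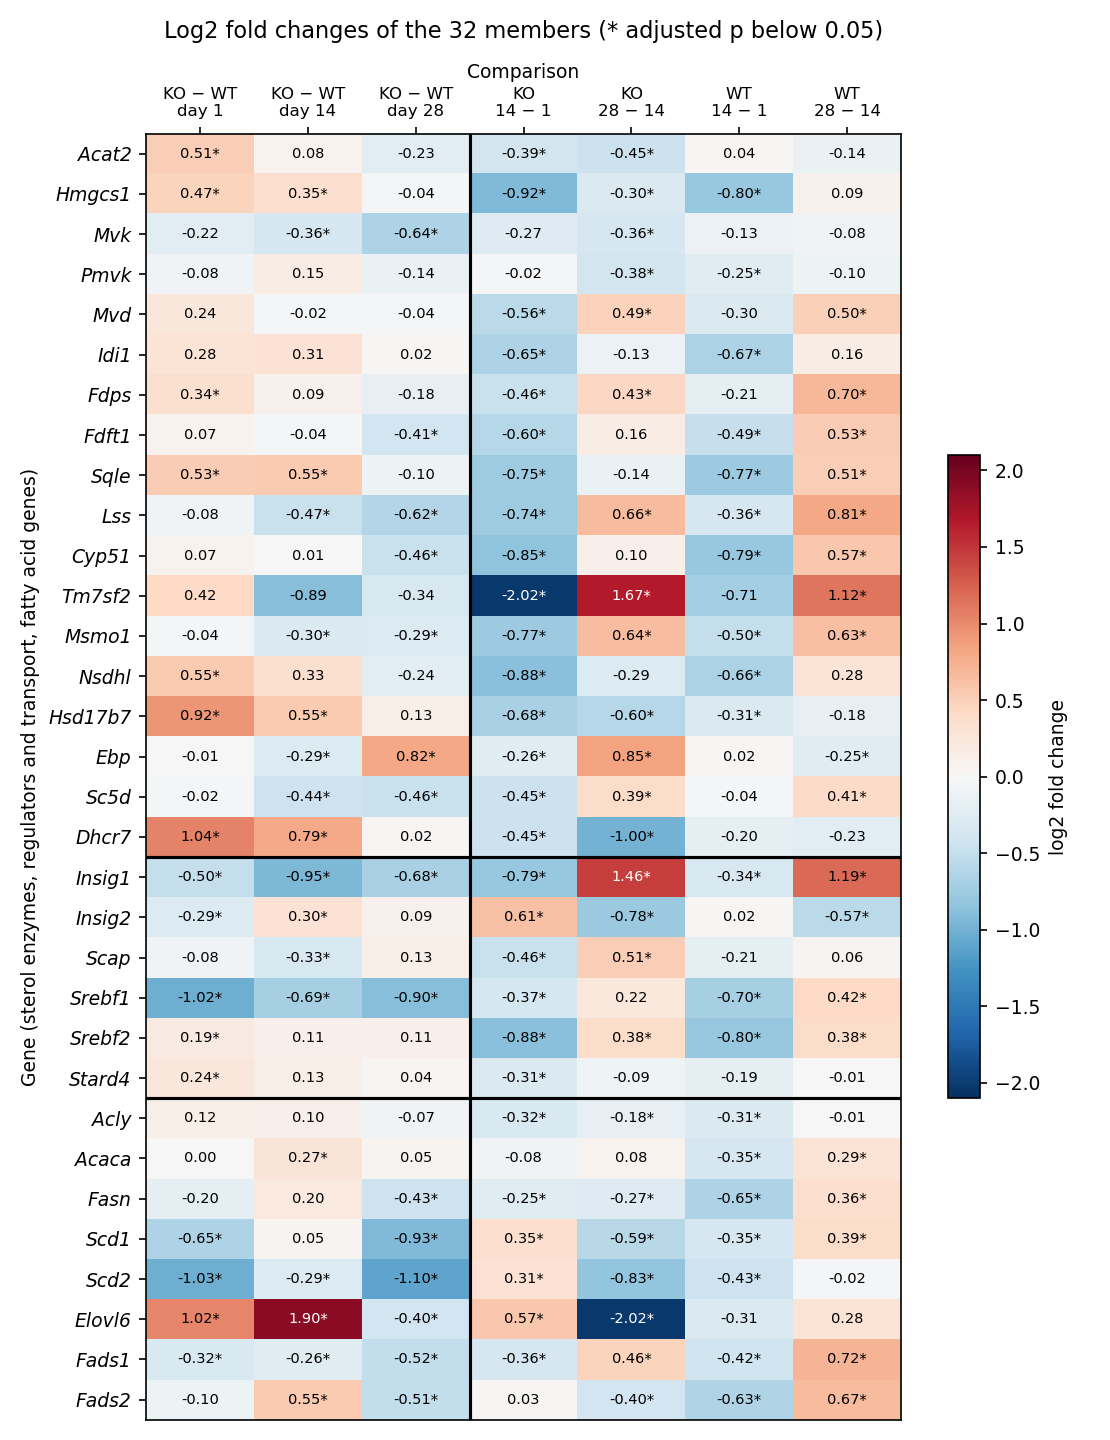
Log2 fold changes of the 32 genes (rows, ordered as sterol enzymes, regulators and fatty acid genes) for KO minus WT at each day and for the steps between days in each line (columns); colour and printed number give the log2 fold change and a star an adjusted p below 0.05. The left 3 columns show Dhcr7, Elovl6 and Hsd17b7 with the largest positive values at day 1 and Srebf1 and Insig1 lower in KO at all 3 days.

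Of the 18 sterol enzymes, 7 were higher in KO cells and 0 were lower at day 1, with a median log2 fold change of 0.26 against −0.01 over all genes. The early steps called were Acat2, which joins acetyl-CoA units, at 0.51 ± 0.12 and Hmgcs1, HMG-CoA synthase, at 0.47 ± 0.09 (adjusted p = 0.00143 and 0.000156, edgeR). Further on, Fdps, farnesyl diphosphate synthase, was at 0.34 ± 0.11 and Sqle, squalene epoxidase, at 0.53 ± 0.10 (adjusted p = 0.0154 and 0.00015, edgeR). The call of Fdps was lost without KO replicate 2 (0.27) or WT replicate 2 (0.26). The late enzymes called were Nsdhl and Hsd17b7, which act in turn to remove the C4 methyl groups, and Dhcr7, which reduces 7-dehydrocholesterol to cholesterol.

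Dhcr7 (chr7:143823145-143848410, plus strand, GRCm38) had 41.7 and 39.1 CPM in KO cells at day 1, against 20.5 and 18.9 CPM in WT cells. At day 14 it had 30.6 and 28.7 CPM in KO cells, against 18 and 16.2 CPM in WT cells. At day 28 it had 14.6 and 15 CPM in KO cells, inside the 17.8 and 11.1 CPM of WT cells. The groups were apart at days 1 and 14 and overlapped at day 28. The log2 fold change was 1.04 ± 0.13 at day 1 (adjusted p = 2.28e-06), 0.79 ± 0.15 at day 14 (adjusted p = 0.000145) and 0.02 ± 0.16 at day 28 (adjusted p = 0.934, edgeR). Without WT replicate 1, the day 28 value was 0.41 and called.

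Hsd17b7 had 78.1 and 77.6 CPM in KO cells at day 1, against 43.3 and 38.7 CPM in WT cells. By day 14 it stood at 54.9 and 42.5 CPM in KO cells, against 34.0 and 32.3 CPM in WT cells. At day 28 the values were 31 and 33.1 CPM in KO cells, against 30.3 and 28.4 CPM in WT cells. KO lay above WT in every library pair, by 0.92 ± 0.10 at day 1 and 0.55 ± 0.11 at day 14, and by 0.13 ± 0.11 at day 28, which was not called (adjusted p = 1.42e-07, 0.000227 and 0.374, edgeR). Nsdhl had 19.9 and 21.7 CPM in KO cells at day 1, against 14.0 and 14.6 CPM in WT cells. It had 10.0 and 12.6 CPM in KO cells at day 14, against 10.1 and 7.64 CPM in WT cells, and 9.34 and 9.17 CPM in KO cells at day 28, against 10.9 and 11 CPM in WT cells. Its groups were apart at day 1 (0.55 ± 0.13, adjusted p = 0.00267, edgeR), and it was called at neither later day.

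Hmgcs1 had 229 and 242 CPM in KO cells at day 1, against 171 and 168 CPM in WT cells. It had 129 and 120 CPM in KO cells at day 14, against 95.7 and 100 CPM in WT cells. At day 28 it had 93.9 and 108 CPM in KO cells, within the 116 and 90.6 CPM of WT cells. The day 14 difference of 0.35 ± 0.09 was called (adjusted p = 0.00376, edgeR) but not without KO replicate 1 (0.29). At day 28 the value was −0.04 ± 0.09 and not called, though it was −0.20 and called without WT replicate 2. Sqle had 139 and 135 CPM in KO cells at day 1, against 98.8 and 90.6 CPM in WT cells. It had 89.7 and 73.1 CPM in KO cells at day 14, against 57.0 and 53.9 CPM in WT cells, and 66.4 and 80.3 CPM in KO cells at day 28, against 86.0 and 71.5 CPM in WT cells. Sqle was higher in KO by 0.55 ± 0.11 at day 14 (adjusted p = 0.000229, edgeR), and its groups overlapped at day 28.

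At day 14 the sterol enzymes divided, with 4 higher and 5 lower and a median of 0.05 against −0.02 over all genes. The 4 higher were Hmgcs1, Sqle, Hsd17b7 and Dhcr7. The 5 lower were Lss, lanosterol synthase, at −0.47 ± 0.09, Sc5d, the C5 desaturase, at −0.44 ± 0.10, Mvk, mevalonate kinase, at −0.36 ± 0.13, Msmo1, the C4 methyl oxidase, at −0.30 ± 0.10, and Ebp, the sterol isomerase, at −0.29 ± 0.09 (adjusted p = 0.00015, 0.000916, 0.0267, 0.0149 and 0.0085, edgeR). Lss and Sc5d kept their calls with any 1 library left out. Without KO replicate 2, Mvk was at −0.21, Msmo1 at −0.15 and Ebp at −0.22, and without WT replicate 1 they were at −0.34, −0.29 and −0.24, none of them called. Mvk was also lost without WT replicate 2 (−0.37) and with DESeq2 (−0.35). Without WT replicate 1, Nsdhl was called higher (0.57, against 0.33 with all libraries).

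At day 28, 1 sterol enzyme was higher and 6 were lower, with a median of −0.21 against −0.01 over all genes. The 6 lower were Mvk (−0.64 ± 0.13), Lss (−0.62 ± 0.08), Cyp51, lanosterol demethylase (−0.46 ± 0.07), Sc5d (−0.46 ± 0.09), Fdft1, squalene synthase (−0.41 ± 0.09), and Msmo1 (−0.29 ± 0.09). Their adjusted p-values in edgeR ran from 1.66e-06 for Lss to 0.0123 for Msmo1, and Msmo1 was not called without KO replicate 1 (−0.17). Acat2 was called lower without KO replicate 2 (−0.43, against −0.23 with all libraries), and Fdps was called lower without KO replicate 2 (−0.37) or WT replicate 2 (−0.30), against −0.18 with all libraries. Mvk had 21.3 and 18.8 CPM in KO cells at day 1, against 23.9 and 22.6 CPM in WT cells. It had 18.4 and 14.9 CPM in KO cells at day 14, against 21.4 and 21.2 CPM in WT cells, and 13.6 and 12.4 CPM in KO cells at day 28, against 21.3 and 18.9 CPM in WT cells. KO was below WT at each day without overlap.

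Ebp was the 1 sterol enzyme called higher in KO cells at day 28. It had 77.2 and 80.9 CPM in KO cells at day 1, against 78.1 and 80.8 CPM in WT cells. It had 68.9 and 62.8 CPM in KO cells at day 14, against 82.4 and 78.0 CPM in WT cells, and 123 and 114 CPM in KO cells at day 28, against 73.4 and 60.9 CPM in WT cells. The day 28 difference was 0.82 ± 0.08 (adjusted p = 8.58e-08, edgeR). Pmvk, Mvd, Idi1 and Tm7sf2, which act between mevalonate and isopentenyl isomers or, for Tm7sf2, after lanosterol, were called at no day. Their values ran from −0.89 (Tm7sf2, day 14) to 0.42 (Tm7sf2, day 1), and Tm7sf2 was called at day 14 with no filter on low counts (−0.89) and at day 1 without WT replicate 2 (0.84).

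**Figure D3:**
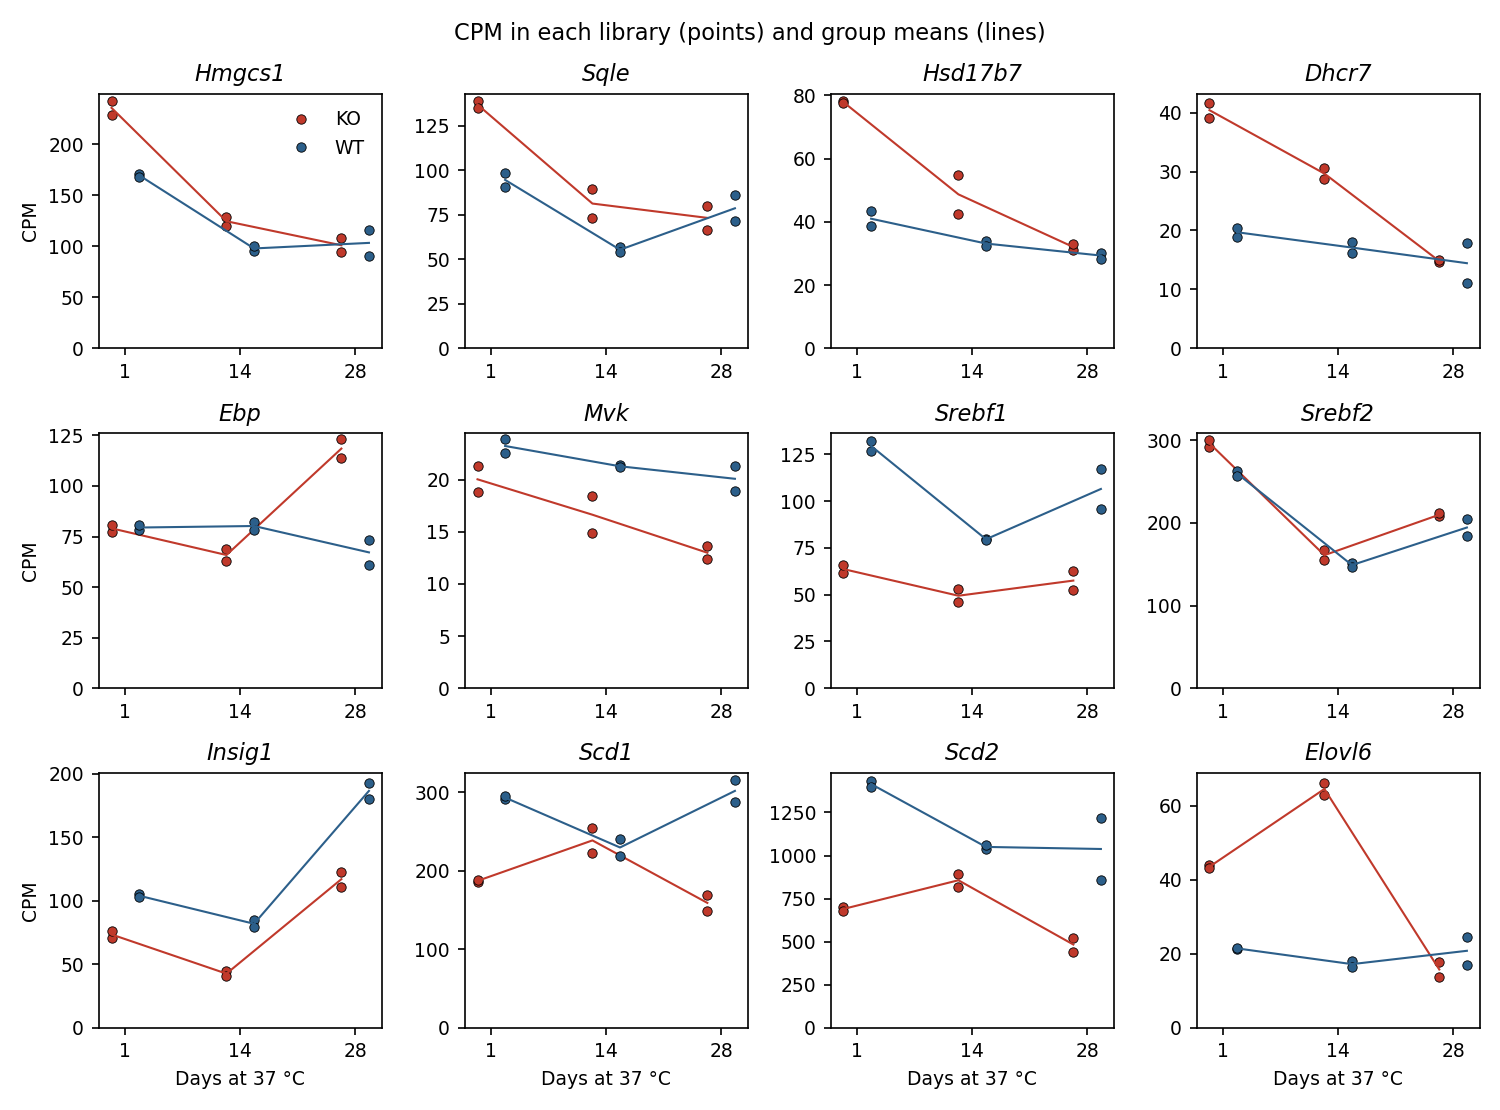
CPM of 12 genes in each library (points; KO red, WT blue) by days at 37 °C, with lines through the group means and a linear axis from 0. Dhcr7 and Hsd17b7 start near 40 and 78 CPM in KO and come together with WT by day 28, Srebf1 and Insig1 stay below WT in KO, and Elovl6 peaks in KO at day 14.

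Among the regulators, Srebf1, which encodes SREBP1, was lower in KO cells at all 3 days (chr11:60199089-60222581, minus strand, GRCm38). It had 61.7 and 65.6 CPM in KO cells at day 1, against 132 and 127 CPM in WT cells. It had 52.9 and 45.9 CPM in KO cells at day 14, against 79.8 and 79.4 CPM in WT cells, and 62.4 and 52.6 CPM in KO cells at day 28, against 117 and 96.0 CPM in WT cells. The groups never overlapped. Differences were −1.02 ± 0.09, −0.69 ± 0.10 and −0.90 ± 0.09 (adjusted p = 1.66e-08, 6.96e-06 and 1.62e-07, edgeR). Srebf2, which encodes SREBP2, was at 0.19 ± 0.06 at day 1 (adjusted p = 0.0227, edgeR), at 0.11 ± 0.07 at day 14 and at 0.11 ± 0.06 at day 28, neither of the later values called. Its day 1 call was lost with any 1 of the 4 day 1 libraries left out (0.17 to 0.22) and with scaling by library totals (0.13), and at day 28 it was called without WT replicate 1 (0.19). Within each library, the ratio of Srebf1 to Srebf2 (RPKM) was 0.269 to 0.404 in KO libraries and 0.630 to 0.728 in WT libraries. The counts carry no splice form, so SREBP1a and SREBP1c are not told apart.

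Insig1, itself an SREBP target in many cells, was also lower in KO cells at every day. It had 70.7 and 76.3 CPM in KO cells at day 1, against 105 and 103 CPM in WT cells. It had 44.8 and 40.5 CPM in KO cells at day 14, against 84.7 and 79.1 CPM in WT cells, and 111 and 123 CPM in KO cells at day 28, against 193 and 180 CPM in WT cells. Differences were −0.50 ± 0.07, −0.95 ± 0.08 and −0.68 ± 0.07 (adjusted p = 1.82e-05, 6.78e-09 and 1.7e-07, edgeR), while both lines had their highest Insig1 at day 28. Insig2, the second retention protein, was lower in KO at day 1 (−0.29 ± 0.08) and higher at day 14 (0.30 ± 0.08, adjusted p = 0.00647 and 0.00399, edgeR). Its day 1 call was lost without KO replicate 2 (−0.22) or WT replicate 1 (−0.18). The ratio of Insig1 to Insig2 (RPKM) at day 14 was 0.517 and 0.475 in KO libraries, against 1.2 and 1.15 in WT libraries, and at day 28 it was 2.20 and 2.46 in KO libraries, against 3.88 and 4.07 in WT libraries. Scap, the escort protein, was lower in KO at day 14 (−0.33 ± 0.10, adjusted p = 0.0131, edgeR), a call lost without KO replicate 2 or WT replicate 2 (−0.29 each). Stard4, a sterol carrier, was higher at day 1 (0.24 ± 0.08, adjusted p = 0.0233, edgeR), a call lost without KO replicate 2 (0.20), WT replicate 1 (0.26) or WT replicate 2 (0.22), with scaling by library totals (0.18) and with DESeq2 (0.24).

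**Figure D4:**
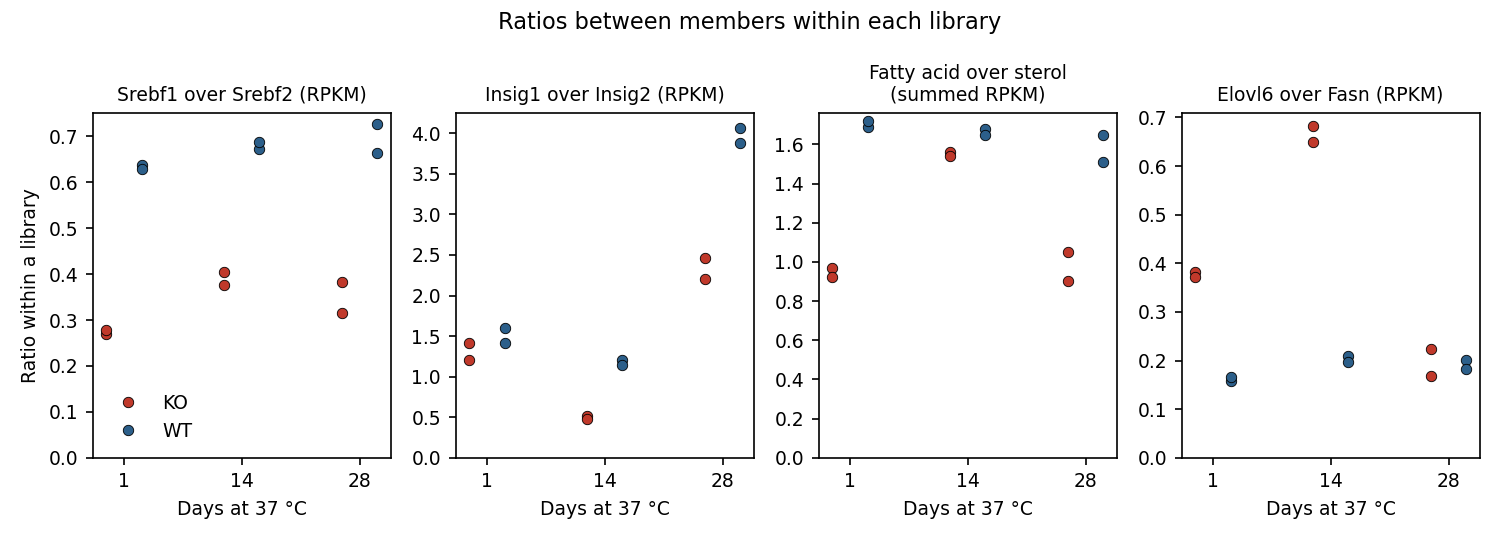
Ratios between genes within each library (RPKM, or summed RPKM for the fatty acid over sterol panel; linear axis from 0) by days at 37 °C, KO red and WT blue. Srebf1 over Srebf2 is at 0.269 to 0.404 in KO and 0.630 to 0.728 in WT, and Elovl6 over Fasn in KO peaks at 0.649 and 0.683 at day 14.

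The fatty acid genes differed among themselves. At day 1, 1 of 8 was higher and 3 were lower in KO cells, with a median of −0.15. At day 14, 3 were higher and 2 lower, with a median of 0.15, and at day 28, 0 were higher and 6 lower, with a median of −0.47; the medians over all genes were −0.01, −0.02 and −0.01. Acly, which makes cytosolic acetyl-CoA, was called at no day, and Acaca, acetyl-CoA carboxylase, was called only at day 14 (0.27 ± 0.08, adjusted p = 0.011, edgeR), a call lost without KO replicate 2 (0.25) or WT replicate 2 (0.23). Fasn, fatty acid synthase, was at −0.20 ± 0.09 and 0.20 ± 0.09 at days 1 and 14, neither called, and lower at day 28 (−0.43 ± 0.09, adjusted p = 0.000703, edgeR). The day 1 value of Fasn was called lower with scaling by library totals (−0.26), and the day 14 value was called with no filter on low counts (0.20).

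Scd2, which with Scd1 introduces the first double bond into saturated fatty acids, had the widest loss. It had 702 and 678 CPM in KO cells at day 1, against 1430 and 1400 CPM in WT cells. It had 895 and 818 CPM in KO cells at day 14, against 1040 and 1060 CPM in WT cells, and 524 and 443 CPM in KO cells at day 28, against 1220 and 856 CPM in WT cells. KO lay below WT at each day. The difference was −1.03 ± 0.11 at day 1 and −1.10 ± 0.11 at day 28 (adjusted p = 1.33e-07 and 6.71e-08, edgeR), and −0.29 ± 0.11 at day 14 (adjusted p = 0.0276, edgeR). The day 14 call was lost without KO replicate 2 (−0.23), WT replicate 1 (−0.30) or WT replicate 2 (−0.28) and with DESeq2 (−0.29). Scd1 had 186 and 188 CPM in KO cells at day 1, against 291 and 295 CPM in WT cells. It had 254 and 223 CPM in KO cells at day 14, against 240 and 219 CPM in WT cells, and 169 and 149 CPM in KO cells at day 28, against 316 and 287 CPM in WT cells. Its groups overlapped at day 14 only, and it was lower in KO at day 1 (−0.65 ± 0.08) and at day 28 (−0.93 ± 0.08; adjusted p = 7.6e-07 and 6.22e-09, edgeR). Per length, Scd2 made up 37.1% to 48.2% of the summed RPKM of the 8 fatty acid genes in KO libraries and 45.7% to 58.1% in WT libraries.

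Elovl6, the elongase that takes palmitate to stearate, ran the other way at days 1 and 14. It had 43.9 and 43.1 CPM in KO cells at day 1, against 21.3 and 21.6 CPM in WT cells. It had 66.2 and 62.8 CPM in KO cells at day 14, against 18 and 16.4 CPM in WT cells, and 13.7 and 17.8 CPM in KO cells at day 28, against 24.6 and 17.0 CPM in WT cells. KO libraries lay above WT at days 1 and 14, and at day 28 the groups overlapped. It was higher in KO by 1.02 ± 0.13 at day 1 and 1.90 ± 0.13 at day 14 (3.73-fold; adjusted p = 1.58e-06 and 2.79e-10, edgeR) and lower at day 28 (−0.40 ± 0.14; adjusted p = 0.0301, edgeR). The day 28 call was lost without KO replicate 1 (−0.23) or WT replicate 1 (−0.10). The ratio of Elovl6 to Fasn (RPKM) was 0.383 and 0.371 in KO libraries at day 1, against 0.158 and 0.166 in WT libraries. At day 14 it was 0.649 and 0.683 in KO libraries, against 0.210 and 0.197 in WT libraries, and at day 28 it was 0.168 and 0.224 in KO libraries, against 0.201 and 0.183 in WT libraries.

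Fads2, the delta-6 desaturase of polyunsaturated fatty acids, had 126 and 122 CPM in KO cells at day 1, against 133 and 134 CPM in WT cells. It had 134 and 120 CPM in KO cells at day 14, against 93.0 and 78.8 CPM in WT cells, and 91.2 and 101 CPM in KO cells at day 28, against 151 and 122 CPM in WT cells. Higher in KO at day 14 (0.55 ± 0.09) and lower at day 28 (−0.51 ± 0.09), it changed direction without overlap between groups (adjusted p = 5.37e-05 and 0.000128, edgeR). Fads1, the delta-5 desaturase beside it on chromosome 19, was lower in KO at all 3 days, at −0.32 ± 0.08, −0.26 ± 0.09 and −0.52 ± 0.08 (adjusted p = 0.00463, 0.019 and 4.36e-05, edgeR). Its day 1 call was lost without KO replicate 2 or WT replicate 2 (−0.27 each), and its day 14 call without KO replicate 2 (−0.17) or WT replicate 1 (−0.09).

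Genes that mark adipocytes, a cell type with strong fatty acid synthesis, had a lower summed level in KO libraries at each day. Of 4 markers tested, 0 were higher and 2, 3 and 2 were lower in KO cells at days 1, 14 and 28. Over all genes tested, 19.5%, 23.8% and 19.8% were higher and 20.8%, 25.9% and 21.2% lower at these days. The 8 adipocyte markers summed to 1.04 to 2.58 CPM in KO libraries and 9.82 to 17.5 CPM in WT libraries. Pparg averaged 0.0736, 0.137 and 0.0865 CPM in KO cells and 5.06, 6.14 and 7.15 CPM in WT cells at days 1, 14 and 28. Plin4 averaged 0.782, 0.356 and 1.21 CPM in KO cells and 5.23, 6.51 and 9.28 CPM in WT cells. These 2 genes made up most of the sum in WT libraries, whereas in KO libraries Fabp4, at 0.648, 0.75 and 0.618 CPM, exceeded Pparg. The defining adipocyte genes were near 0 in every library, with Adipoq at 0 to 14 counts, Plin1 at 0 to 4, Cidec and Lep at 0 or 1 and Cfd at 0 to 2. The 6 osteoblast markers summed to 22200 and 21900 CPM in KO libraries at day 14, against 11600 and 12100 CPM in WT libraries. Most of that sum was Col1a1, with a mean of 17800 CPM in KO cells and 7200 CPM in WT cells. By gene, 4 of the 6 were higher and 2 lower in KO at day 14, where 23.8% of all genes tested were higher and 25.9% lower. The lower ones were Ibsp (2390 CPM in KO cells, 3530 CPM in WT cells) and Bglap2 (16.2 CPM in KO cells, 33.3 CPM in WT cells). The sums at day 1 were 8690 and 8730 CPM in KO libraries, against 8850 and 8760 CPM in WT libraries, and at day 28 they were 4610 and 2920 CPM in KO libraries, against 5510 and 3840 CPM in WT libraries. The part of these marker levels in the lipid gene results was not tested. In bulk RNA, fewer cells of a type and less RNA per cell cannot be told apart.

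Time was compared within each line. From day 1 to day 14, 16 of 18 sterol enzymes fell and 0 rose in KO cells, where 37.5% of all genes were called (19.4% higher, 18% lower); 10 fell and 0 rose in WT cells, where 34.1% of all genes were (18.2% higher, 15.9% lower). The median sterol change was −0.63 in KO cells and −0.33 in WT cells. Most sterol calls were kept with any 1 library left out, and in each line the largest number was lost without day 14 replicate 2. In KO cells the calls lost were Acat2 (−0.39), Mvd (−0.41), Fdps (−0.33), Ebp (−0.20) and Dhcr7 (−0.40). In WT cells they were Pmvk (−0.27), Nsdhl (−0.49) and Hsd17b7 (−0.26). Leaving out another library lost fewer. Hmgcs1 fell by 0.92 ± 0.09 in KO cells and by 0.80 ± 0.09 in WT cells, and Srebf2 fell by 0.88 ± 0.07 in KO cells and by 0.80 ± 0.07 in WT cells (adjusted p at most 8.21e-07, edgeR). Fatty acid genes differed in direction over the same step. In KO cells 3 of 8 rose (Elovl6, Scd1 and Scd2) and 3 fell (Acly, Fasn and Fads1), whereas in WT cells 0 rose and 7 fell. Elovl6 rose by 0.57 ± 0.12 in KO cells and was at −0.31 ± 0.15 in WT cells, not called. Scd1 rose by 0.35 ± 0.08 in KO cells and fell by 0.35 ± 0.08 in WT cells, although the rise in KO was not called without KO day 14 replicate 1 (0.25); that of Scd2 in KO (0.31 ± 0.11) was lost without KO day 1 replicate 1 (0.33) or 2 (0.29) or KO day 14 replicate 1 (0.24). The fall of Fasn in KO (−0.25 ± 0.09) was lost without KO day 1 replicate 1 (−0.27) or 2 (−0.24) or KO day 14 replicate 2 (−0.18), and that of Fads1 in KO (−0.36 ± 0.09) without KO day 14 replicate 2 (−0.27).

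From day 14 to day 28, 7 sterol enzymes rose and 6 fell in KO cells, where 50.7% of all genes were called (25.6% higher, 25.1% lower), and 9 rose and 1 fell in WT cells, where 34.7% were (17.9% higher, 16.8% lower). The KO rises of Mvd and Fdps were lost without KO day 14 replicate 2 (0.33 and 0.29) or KO day 28 replicate 2 (0.45 and 0.24), and the WT rise of Mvd without WT day 14 replicate 1 (0.47). The KO fall of Acat2 was lost without KO day 28 replicate 1 (−0.29). That of Hmgcs1 was lost without KO day 14 replicate 1 (−0.25) or KO day 28 replicate 1 (−0.21). That of Mvk was lost without KO day 14 replicate 1 (−0.20) or KO day 28 replicate 2 (−0.29) and with DESeq2 (−0.36). Lss, Msmo1, Fdps, Mvd, Sc5d and Tm7sf2 rose in both lines, and Insig1 rose by 1.46 ± 0.08 in KO cells and 1.19 ± 0.07 in WT cells. Ebp rose by 0.85 ± 0.08 in KO cells and fell by 0.25 ± 0.08 in WT cells, a WT fall not called without WT day 14 replicate 1 (−0.21) or WT day 28 replicate 2 (−0.13). Dhcr7 and Hsd17b7 fell by 1.00 ± 0.15 and 0.60 ± 0.10 in KO cells. Of the fatty acid genes, 1 rose and 6 fell in KO cells, whereas 5 rose and 0 fell in WT cells. The KO fall of Acly was lost without KO day 14 replicate 1 (−0.16) or 2 (−0.21) or KO day 28 replicate 1 (−0.17). It was also lost with no filter on low counts (−0.18). That of Fasn was lost without KO day 14 replicate 1 (−0.19) or KO day 28 replicate 2 (−0.25). Elovl6 fell by 2.02 ± 0.13 in KO cells and was at 0.28 ± 0.15 in WT cells, not called. Fads1 rose in both, by 0.46 ± 0.09 in KO cells and 0.72 ± 0.09 in WT cells. The WT rise of Fasn was lost without WT day 28 replicate 1 (0.14). That of Acaca was lost without WT day 14 replicate 2 (0.25) and with only the groups compared fitted (0.29). Scd2 in WT cells was called lower without WT day 28 replicate 1 (−0.29). Without WT day 28 replicate 2, Scd2 (0.21) and Elovl6 (0.51) were called higher in WT cells. Over the whole span, 11 sterol enzymes fell and 1 rose in KO cells, where 55.5% of all genes were called (28.2% higher, 27.4% lower), and 9 fell and 3 rose in WT cells, where 48% were (24.6% higher, 23.4% lower). The number of sterol enzymes called in WT cells was 7 to 11 with 1 library left out, against 12. The largest falls from day 1 to day 28 in KO cells were Elovl6 (−1.45 ± 0.13), Dhcr7 (−1.44 ± 0.14), Hsd17b7 (−1.28 ± 0.10), Hmgcs1 (−1.22 ± 0.09) and Nsdhl (−1.17 ± 0.15).

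The difference between the lines in these changes was tested directly, as the KO change minus the WT change. From day 1 to day 14, 9 of the 32 genes were called, 6 higher and 3 lower, where 18.8% of all genes were (9.19% higher, 9.65% lower). Of the 8 fatty acid genes 5 were higher and 0 lower, with a median of 0.53, and of the 18 sterol enzymes 0 were higher and 2 lower, with a median of −0.25. From day 1 to day 28, 15 of 32 were called, 2 higher and 13 lower, where 20% of all genes were (10.6% higher, 9.46% lower). There 11 sterol enzymes were lower and 1 was higher, with a median of −0.52, and 2 fatty acid genes were lower and 0 higher, with a median of −0.21. The count for sterol enzymes over the first step was 8 when only the groups compared were fitted and 0 with DESeq2. The count for fatty acid genes over the whole span was 6 without WT day 28 replicate 2. These comparisons share the day 1 libraries. No test between the 2 classes was run.

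**Figure D5:**
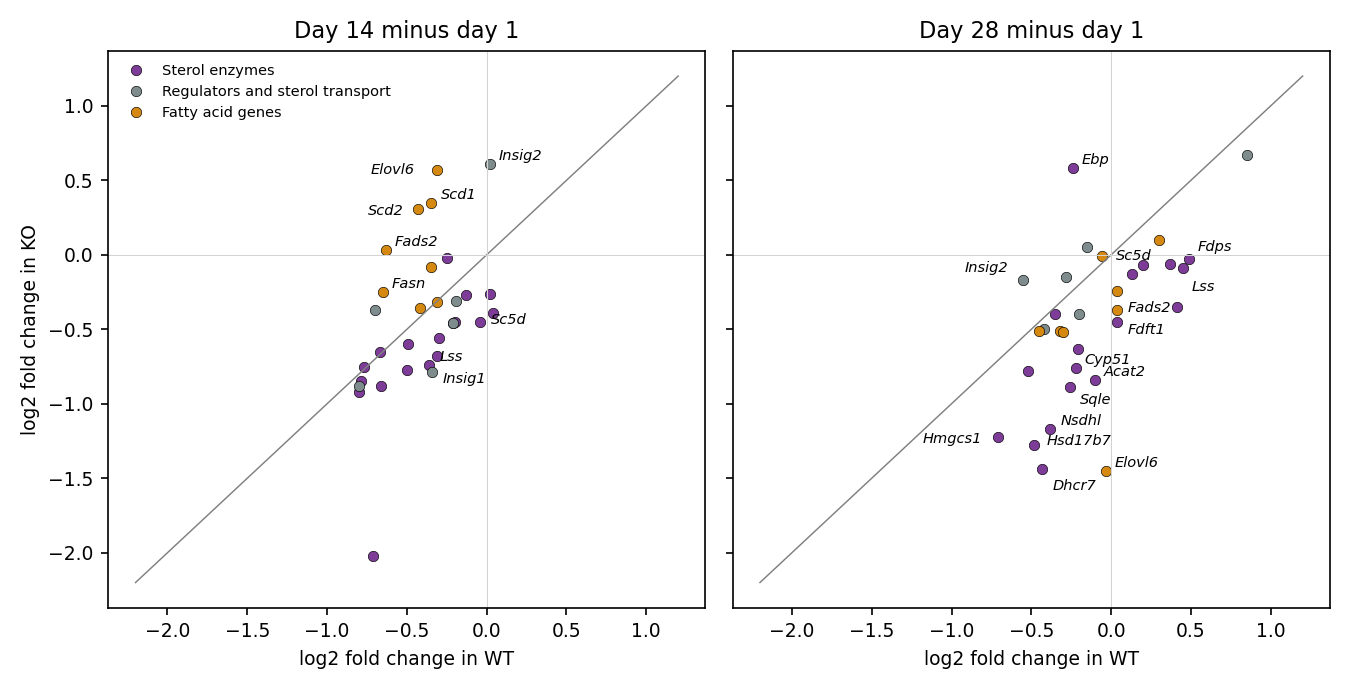
Log2 fold change from day 1 in KO cells (vertical) against WT cells (horizontal) for the 32 genes at days 14 and 28; the diagonal marks equal change and names mark genes whose change differed between the lines (adjusted p below 0.05). At day 14, 5 of 8 fatty acid genes are named above the diagonal, led by Elovl6 (0.57 in KO, −0.31 in WT), and at day 28, 11 of 18 sterol enzymes are named below it, led by Dhcr7 (−1.44 in KO, −0.43 in WT), with Ebp above.

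Other genes of the pathway were read from lists, none of which was tested as a set. Over all genes tested, 19.5%, 23.8% and 19.8% were higher and 20.8%, 25.9% and 21.2% lower in KO cells at days 1, 14 and 28, and the counts that follow are to be read against those shares. Of 9 genes of lipid uptake and endosomal sterol export, 0 were higher in KO cells and 4, 5 and 6 were lower at days 1, 14 and 28, with medians of −0.29, −0.42 and −0.43. Vldlr, the VLDL receptor, was lower at day 1 (−1.57 ± 0.07), Lipa, lysosomal acid lipase, at day 14 (−1.01 ± 0.10), and Lrp8, the apolipoprotein E receptor 2, at day 28 (−1.49 ± 0.19; adjusted p = 1.16e-13, 3.18e-08 and 1.9e-06, edgeR). Of 7 tested genes of sterol efflux and LXR response, 0, 0 and 2 were higher and 3, 4 and 2 lower at days 1, 14 and 28. Abca1, the cholesterol efflux pump, was lower at day 1 (−2.32 ± 0.14) and at day 14 (−1.29 ± 0.11; adjusted p = 3.78e-11 and 4.67e-09, edgeR). Of 7 genes of SREBP processing and turnover, 3, 2 and 4 were higher and 2, 3 and 0 lower; Erlin1, a membrane protein of the endoplasmic reticulum, was lower at day 14 (−1.21 ± 0.11, adjusted p = 1.01e-08, edgeR). Of 13 acyl chain and glycerolipid genes, 1 was higher at each day and 3, 3 and 2 were lower, with Dgat2, a triglyceride synthase, lower at day 1 (−1.21 ± 0.28, adjusted p = 0.0017, edgeR). Of 8 genes supplying acetyl-CoA and NADPH, 1, 3 and 1 were higher and 2, 3 and 2 lower. Of 6 other sterol and isoprenoid enzymes, 0, 2 and 1 were higher and 3, 1 and 2 lower.

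Some of these counts may carry reads of other genes, since neither the strand setting of the counting nor its handling of multi-mapping reads is stated. Exons of Fdft1 overlap Ctsb on the opposite strand over 774 bases, those of Scap 5830462I19Rik over 985, Hmgcs1 Gm48342 over 557, Lss 4930483K19Rik over 381, Idi1 Gm48574 over 323, Cyp51 Akap9 over 166, Srebf1 Rai1 over 109 and Elovl6 Gm35986 over 34. On the same strand, Fdps overlaps Gm43738 over 1124 bases, Tm7sf2 Vps51 over 532, Srebf1 Mir6922 over 66 and Scd2 Mir5114 over 61. Acat2 shares 43.7% of its 31-base words with other genes, chiefly Acat3, and Acaca shares 33.5%, chiefly with Gm5182. Fdft1 shares 31.9%, chiefly with Ctsb, Fdps 27.9%, chiefly with Gm43738, and Idi1 27.1%, chiefly with Gm13502. Values of these genes are uncertain to that extent.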

How the data were processed

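Poly(A) RNA of 12 libraries was measured as read counts per gene. The deposited counts were made, per the submitters' processing notes, with STAR, the build mm10 and featureCounts of Subread; edgeR is named without a version or role, and no strand setting is given. Counts were used as deposited, without 3 transgene rows. In R 4.3.3, edgeR 4.0.16 (with limma 3.58.1) kept 13772 of 32248 rows by filterByExpr (minimum count 10, minimum total 15), scaled by TMM, and fitted a quasi-likelihood model with 6 groups (6 residual and 14.6 prior degrees of freedom, common biological coefficient of variation 5.53%). 11 comparisons were tested, two-sided, with Benjamini-Hochberg adjustment over all genes; SE is the log2 fold change over the square root of F. CPM use TMM-scaled totals, and class means use log2 CPM with a prior count of 0.5. RPKM use summed exon length (GENCODE M21, GRCm38). Fits were tested on simulated data. DESeq2 1.42.0, other scalings and filters, and left-out libraries were alternatives. The members and gene lists were chosen with earlier results of these data known. Per-library CPM is given for members called with an absolute log2 fold change of at least 1 between lines or from day 1 to day 28, and for the 2 largest called members of each class at each day; related genes are named when called at 1 or more. Replicate numbers did not pair the libraries.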

Additional observations from a re-analysis of the deposited data

Results flagged for a closer look

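The change from day 1 differed between the lines, as the KO change minus the WT change with edgeR's adjusted p below 0.05, for 9 genes at day 14 and 15 at day 28. At day 14 the difference was positive for Elovl6 (0.88), Scd2 (0.74), Scd1 (0.70), Fads2 (0.66), Insig2 (0.58) and Fasn (0.40), and negative for Insig1 (−0.45), Sc5d (−0.41) and Lss (−0.39). Scd1, Scd2, Elovl6, Fads2 and Insig2 kept their calls with each of the 8 libraries concerned left out in turn. Fasn, Sc5d and Lss were each lost in 7 of these 8 fits (0.31 to 0.43, −0.48 to −0.30 and −0.42 to −0.35), and Insig1 without KO day 1 replicate 2 (−0.39), KO day 14 replicate 2 (−0.38) or WT day 14 replicate 1 (−0.39).

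At day 28 the difference was positive for Ebp (0.82) and Insig2 (0.38). It was negative for Elovl6 (−1.42), Dhcr7 (−1.02), Hsd17b7 (−0.80), Nsdhl (−0.79), Acat2 (−0.74), Sqle (−0.63), Lss (−0.54), Cyp51 (−0.54), Fdps (−0.53), Hmgcs1 (−0.51), Fdft1 (−0.48), Sc5d (−0.43) and Fads2 (−0.41). Nsdhl was lost without KO day 1 replicate 2 (−0.72), and Fdps without that library (−0.45), KO day 28 replicate 1 (−0.38) or WT day 1 replicate 2 (−0.44). Insig2 was lost without KO day 1 replicate 2 (0.32), KO day 28 replicate 1 (0.36) or 2 (0.38), or WT day 1 replicate 1 (0.28). Sc5d was lost without KO day 1 replicate 1 (−0.45) or 2 (−0.42), KO day 28 replicate 1 (−0.36), WT day 1 replicate 1 (−0.38) or WT day 28 replicate 1 (−0.31). Fads2 was lost in 6 of the 8 fits, at −0.24 without WT day 28 replicate 1. Without WT day 28 replicate 2, the differences of Fasn (−0.41), Scd1 (−0.35), Stard4 (−0.32), Scd2 (−0.30), Mvk (−0.50) and Acly (−0.26) were also called.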

How the results depend on the processing

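Of 4117 values of the 32 genes under alternatives, 3871 kept their direction and side of the threshold, 176 lost a call, 69 gained one and 1 turned: Scd2 from day 14 to day 28 in WT cells was at 0.21 and called without WT day 28 replicate 2, at −0.29 and called without WT day 28 replicate 1, and at −0.02 with all libraries. With only the groups compared fitted, 3612 genes were called between the lines at day 28 and 4093 for the difference of change at day 14; sterol enzymes called numbered 7 for day 28 minus day 1 in WT cells and 8 for the difference of change at day 14, where DESeq2 called 0. The cause was not tested. By summed CPM, the sterol minus fatty acid level was 0.56, −0.21 and 0.44 in KO cells and −0.31, −0.33 and −0.14 in WT cells at the 3 days, which turned the day 14 direction to KO above WT; without Elovl6, added after seeing the data, it was 0.43, −0.17 and 0.17 in KO cells and −0.16, −0.10 and −0.15 in WT cells. Leaving out 1 library, the fatty acid genes called ran from 2 to 5 between the lines at day 14, from 2 to 5 for day 28 minus day 1 in WT cells and from 1 to 6 for the difference of change at day 28. Sterol enzymes called ran from 7 to 11 for day 28 minus day 1 in WT cells and from 0 to 1 for the difference of change at day 14. All genes called ran from 1668 to 1914 for the difference of change at day 14 and from 1691 to 3899 at day 28. With the replicate block, 5519, 6785 and 5643 genes were called between the lines at days 1, 14 and 28; it added the calls of Fasn at day 14 (0.20) and of Scd1 for the difference of change at day 28 (−0.28) and changed no other call of the 32 genes. The replicate numbers gave deviations correlated at −0.04 to 0.11 and pair no libraries. Depth limits Tm7sf2 most, and 2 libraries per group limit every estimate of spread.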
